A study of Homo sapiens with 6 samples.

Results

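The DNA of SW620 cells grown as a xenograft was compared with the DNA of the same line in culture before grafting, at every satellite locus of the deposited matrix. SW620 is a human colon adenocarcinoma line that was taken from a metastasis in a lymph node. All 9566 loci of the matrix were members, since the comparison was chosen by its libraries and not by measured values. The loci belong to 24 repeat families on 56 chromosomes and contigs of hg19, the build given in the submitters' processing notes. The culture before grafting was SW620 in RPMI1640 with 10% FBS, and the xenograft was SW620 grown subcutaneously in Nu/Nu mice, which lack T cells but keep innate immune cells. The same cells back in culture after the xenograft are given beside the other values for reference. Each group is 1 library. A DNeasy kit yielded the DNA, and Helicos single-molecule sequencing read it without PCR amplification. Whether animals were pooled is not given in the sources used here.

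Satellites are tandem repeats that fill the centromeres and the heterochromatin around them. ALR/Alpha, or alpha satellite, is the repeat on which centromeres are built, and higher-order arrays of it form the active centromere of each human chromosome. HSATII and the pentamer repeats (CATTC)n and (GAATG)n belong to pericentromeric heterochromatin, gamma satellite (GSATII) lies in pericentromeric DNA, and TAR1 is a repeat of subtelomeres. DNA reads at a satellite are a measure of how much of the repeat the library holds, and the assembled reference contains only a small part of the real arrays.

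The values are RPM, the reads at a locus divided by the total of its library and multiplied by 1000000. The totals were 4355426 reads in the culture before, 3231173 in the xenograft and 3080853 in the culture after. A single read was worth 0.230, 0.309 and 0.325 RPM, and a locus without a read could hold up to 0.689, 0.928 or 0.974 RPM, taking 3 reads as the limit. Reads counted at a locus are called hits, and satellite hits numbered 37190, 319346 and 319998. At least 1 hit fell on 33.0% of the loci in the culture before, on 67.3% in the xenograft and on 65.5% in the culture after. The ratio of xenograft to culture before over all satellite hits was 11.6 (95% interval 11.5 to 11.7). Intervals of ratios are exact conditional binomial intervals on hits and cover counting error only. With 1 library a side no difference can be set against a spread between cultures or animals, and no test was made. In bulk DNA, more copies per cell and more cells that carry them cannot be told apart, and the library, its extraction and the growth condition cannot be told apart either.

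The scale decides the sign of many ratios. Scaling the libraries over satellite loci in place of the deposited totals moved the log2 of every ratio of RPM by -3.04 (TMM) or -3.15 (size factors). Ratios under 8.20 or 8.90 thus fall below 1. Where 5 RPM is added at single loci, as below, the shift depends on the RPM of the locus. Ratios are therefore given on the deposited scale, and differences between groups of loci are given as ratios of ratios, which no scaling changes. Satellites with ratios between 1 and 8.20 were higher in the xenograft on the deposited scale and lower relative to the typical satellite locus, and those under 1 were lower on both.

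Loci were compared singly where at least 20 RPM was reached in either library, on the log2(RPM + 5) scale, with 2-fold as the threshold. Of 444 such loci, 398 (89.6%) were higher in the xenograft and 9 (2.03%) were lower, while 37 were in neither group. Scaled over satellite loci, 189 (TMM) or 163 (size factors) were higher and 58 or 60 were lower. Most of the 444 reached 20 RPM only in the xenograft, which makes a higher call likely. Of the 75 loci that had 20 RPM or more in the culture before, 38 were higher, 9 lower and 28 neither. This choice leans the other way, since it favours loci that happened to be high in that library.

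The counts by family follow the filter closely and are given as a description. All 99 HSATII loci compared were higher, but only 6 of them had 20 RPM in the culture before. The 20 ACRO1, 12 (CATTC)n, 7 CER and 4 (GAATG)n loci compared were also higher, and 0 of them reached 20 RPM in the culture before, so nothing is read from those counts. ALR/Alpha had 218 of 245 loci higher, 4 lower and 23 neither, and 35 of 39 BSR/Beta (beta satellite) loci were higher, both shares close to the 89.6% over all loci. Of the 51 ALR/Alpha loci at 20 RPM or more before, 31 were higher, 4 lower and 16 neither. The 9 GSATII loci, 8 of which had 20 RPM before, passed the threshold in neither direction. The 4 TAR1 loci compared and the single SST1 locus, a macrosatellite repeat, were lower, and they reached 20 RPM only in the culture before.

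**Figure D1:**
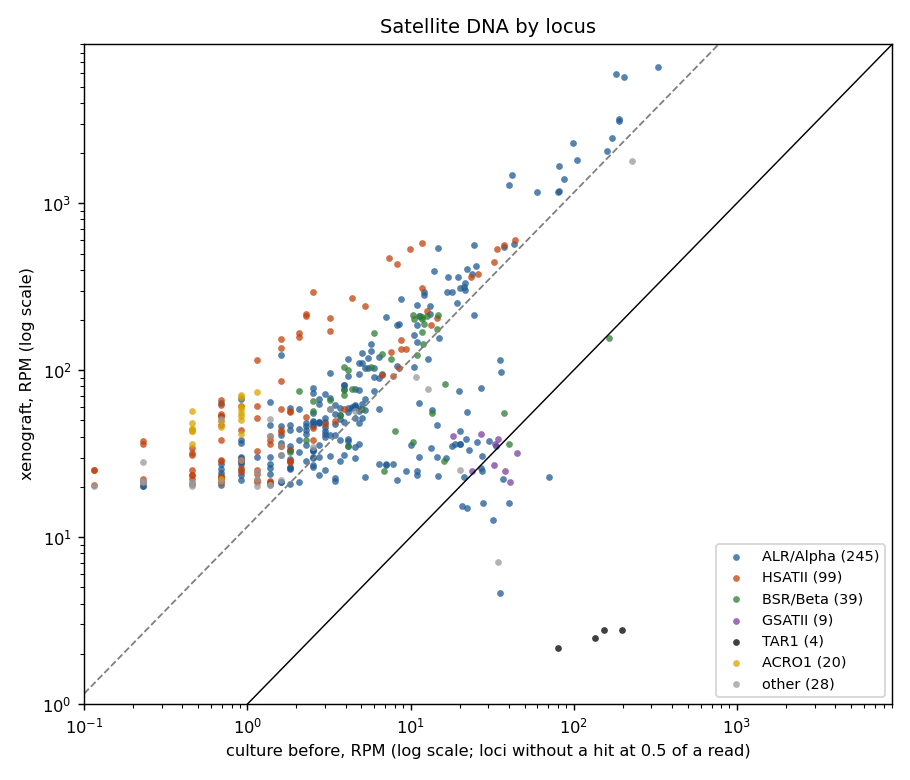
Each point is a satellite locus, with its RPM in the culture before on the horizontal axis and its RPM in the xenograft on the vertical axis. Both axes are on log scales, and loci without a hit in the culture before are placed at 0.5 of a read. HSATII loci lie far above the line of equality, 4 TAR1 loci at 80.1 to 198 RPM before lie far below it, and ALR/Alpha loci range from below the line, where 4 were lower by 2-fold or more, to ratios above 30.

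ALR/Alpha, with 1301 loci, was followed across chromosomes with the repeat held fixed. On the 22 chromosomes and contigs with 100 or more hits in the culture before, the ratio had a median of 12.7, and the highest was 4.78 times the lowest. The highest were the contig 19_gl000208_random with 23.9 (19.7 to 29.4), chromosome X with 21.9 (21.05 to 22.8) and chromosome 18 with 20.1 (17.8 to 22.8). On X, ALR/Alpha went from 602 RPM in the culture before to 13190 RPM in the xenograft, and it stood at 13220 RPM in the culture after. The 3 highest have overlapping intervals, so their order is not set by these counts.

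The lowest ALR/Alpha ratios were on chromosome Y with 5.01 (4.48 to 5.60), chromosome 16 with 6.22 (5.87 to 6.58) and chromosome 12 with 6.81 (6.44 to 7.21), all below 1 when scaled over satellite loci. Levels on Y were 93.0 RPM before, 465 RPM in the xenograft and 572 RPM after. Chromosome 16 held 335 RPM before, 2083 RPM in the xenograft and 2383 RPM after. The 16 and 12 intervals overlap, and that of Y lies below both. Over the same 22 sequences the culture after differed from the xenograft by ratios of 1.002 to 1.23 only, so the order of chromosomes seen against the culture before has no counterpart of like size between the later libraries.

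Grouped by kind of chromosome, the ALR/Alpha ratio was 21.9 on X, 18.9 (16.5 to 21.8) on the acrocentric chromosomes, 18.9 (18.1 to 19.7) on unplaced or unlocalised contigs, 11.6 (11.4 to 11.8) on the other autosomes and 5.01 on Y. Over all families the order differed. X had 21.5, contigs 15.9, the other autosomes 10.4, the acrocentric chromosomes 9.01 and Y 7.11. On Y the pentamers stood apart from alpha satellite, since (GAATG)n there had 45.3 (38.0 to 54.6) and (CATTC)n 37.0 (27.1 to 51.8), the highest of each family among the chromosomes with 10 or more hits before. A single locus decided some chromosomes. Chromosome 17 had an ALR/Alpha ratio of 14.2, and without its strongest locus, which held 90.7% of the xenograft hits, the ratio of the rest was 2.08. Without the strongest locus of each chromosome the highest ratio was 12.2 times the lowest, and with the median of locus ratios it was 7.63 times.

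**Figure D2:**
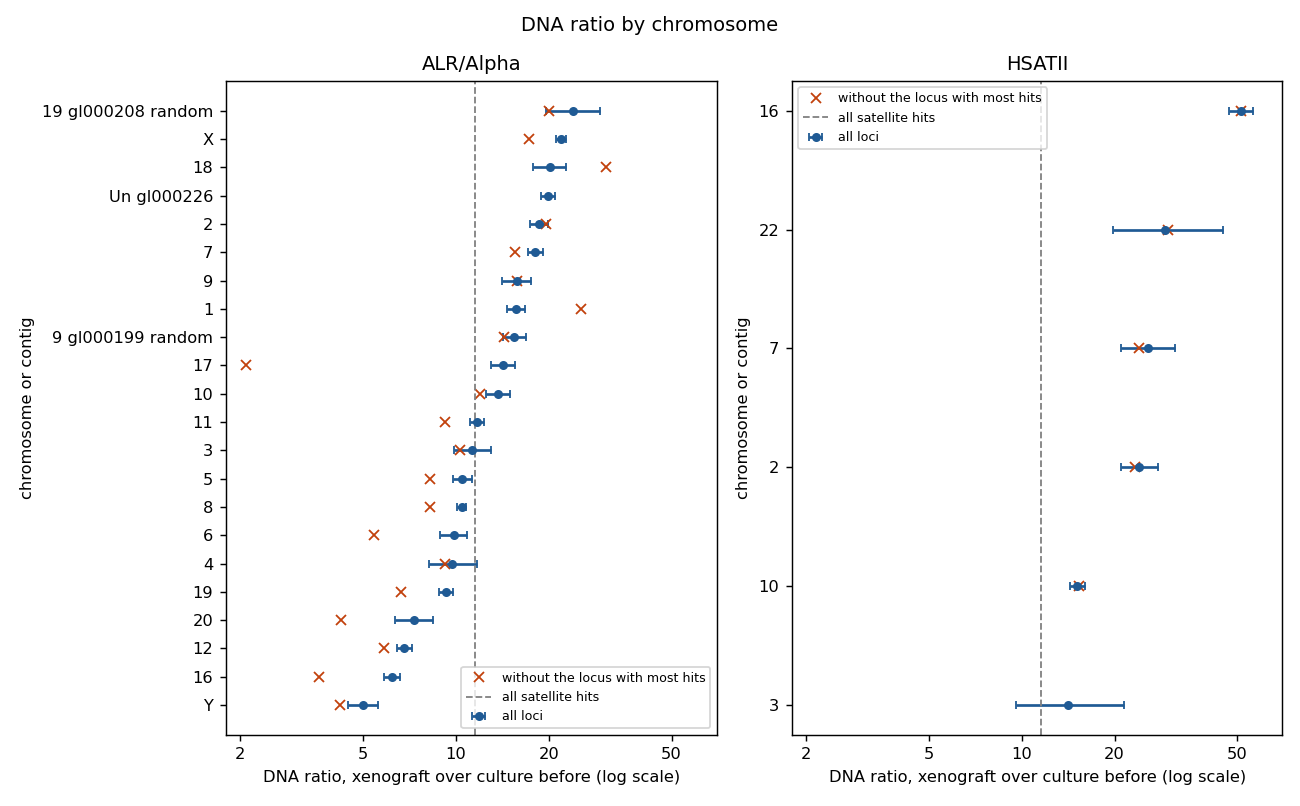
Ratios of DNA in the xenograft to the culture before, on a log axis, for ALR/Alpha on 22 chromosomes and contigs and for HSATII on 6, with 95% counting intervals. Crosses give the ratio without the locus with most xenograft hits, which moves chromosome 17 from 14.2 to 2.08, and the dashed line is the ratio of all satellite hits, 11.6.

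Position on the chromosome went with the ALR/Alpha ratio. The hg19 assembly leaves most centromeres as a gap of fixed size, and on 13 chromosomes an interval of 2.9 to 3.3 Mb without ALR/Alpha is flanked on both sides by an ALR/Alpha locus of 1000 bp or more. These 26 flanking loci, called gap-edge loci, were picked by coordinates alone, by a rule chosen after values had been seen. They had a ratio of 22.3 (21.7 to 22.9), against 7.90 (7.73 to 8.07) for the other 995 ALR/Alpha loci of the same chromosomes. With 6.15% of the ALR/Alpha sequence they held 24.1% of its hits in the culture before and 39.7% in the xenograft. With both edges of a chromosome summed, the gap-edge ratio was above that of the rest on 12 of 13 chromosomes, with separate intervals on 11. On chromosomes 11, 12, 17 and 20 a single edge locus held 99.1% to 99.8% of the summed xenograft hits. The exception was chromosome 18, with 19.9 (17.6 to 22.7) at the edge and 27.5 (13.02 to 69.7) over 2 other loci with 7 hits before.

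The ratio declined away from the gap, with no clear order between the 2 outer classes. It was 12.6 (11.8 to 13.5) within 50 kb of the edge of the interval and 9.60 (9.20 to 10.0) from 50 to 200 kb. From 200 kb to 1 Mb it was 6.69 (6.49 to 6.89), and beyond 1 Mb it was 5.78 (5.41 to 6.18). A single locus of chromosome 7 held 28.8% of the xenograft hits from 200 kb to 1 Mb. Without it that class had 5.19 (5.02 to 5.36), below the class beyond 1 Mb. Gap-edge loci also tend to be long, with 15 of the 26 at 10000 bp or more and 8 under 5000 bp. Among ALR/Alpha loci of 10000 bp or more alone, the edge still had 24.2 (23.4 to 24.9), and the 4 classes of distance had 13.7, 13.7, 12.03 and 11.1 in the same order. Without the chromosome 7 locus, the long loci from 200 kb to 1 Mb had 9.07 (8.62 to 9.56), below those beyond 1 Mb. Most of the fall among long loci thus lay between the edge itself and its first neighbours.

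Chromosome X shows the contrast at single loci, with exceptions. The left edge, at 58544096 to 58582011 (plus strand), went from 204 RPM before to 5744 RPM in the xenograft and 5675 RPM after, a ratio of 28.2 (26.3 to 30.2). At the right edge, 61682015 to 61736573 (minus strand), the values were 182, 5916 and 5834 RPM, a ratio of 32.6 (30.3 to 35.0). Both edges were low only in the culture before. The next locus to the right, 61742600 to 61756516, had 11.0, 246 and 256 RPM, a ratio of 22.3 (16.7 to 30.5). The fall was not steady, since 61862765 to 61874573 had 4 hits before and 217 in the xenograft, a ratio of 73.1 (28.2 to 271), and 61814438 to 61861625 had 18.5 (14.1 to 24.6). Farther out, 61941980 to 61959547 had 14.7, 23.2 and 32.1 RPM, a ratio of 1.58 (1.12 to 2.24), although it is also longer than 10000 bp. The outermost of those with 40 or more hits over both libraries, 62032106 to 62041193, had 31 hits before and 17 in the xenograft, a ratio of 0.739 (0.384 to 1.38). Without its gap-edge loci, ALR/Alpha on X had a ratio of 7.05 (6.57 to 7.56).

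Some other edges repeated the contrast. On chromosome 17 the left edge, 22241552 to 22263006 (plus strand), held 41.8 RPM before, 1477 RPM in the xenograft and 1726 RPM after, a ratio of 35.3 (30.5 to 41.2). The edge loci of chromosome 17 together had 34.1, against 2.09 (1.81 to 2.42) for its 30 other ALR/Alpha loci, the widest separation of the 13 chromosomes. The left edge held 99.8% of these edge hits in the xenograft. The right edge had 7 hits before and 9 in the xenograft, a ratio of 1.73 (0.574 to 5.48), and did not share the contrast. On chromosome 5 the right edge, 49405642 to 49431170 (minus strand), held 14.7, 539 and 564 RPM, a ratio of 36.7 (28.6 to 47.8). Its next neighbours outward did not show the contrast. They had 7, 3 and 6 hits before and 397, 207 and 209 in the xenograft, ratios above that of the edge on few hits before. On chromosome 8 the edges at 43816164 to 43838878 and 46838891 to 46863921 had nearly equal levels, 190 and 189 RPM before and 3177 and 3121 RPM in the xenograft, with ratios of 16.7 and 16.5. Chromosome Y had the lowest ratio when both edges of a chromosome were summed, 10.5 (7.26 to 15.5). That was still above the 4.52 (4.02 to 5.09) of the rest of Y. Some single edges were lower, among them the right edge of chromosome 17. The right edges of chromosomes 20 and 12 had 3.37 (0.552 to 35.4) and 4.72 (0.898 to 46.5), with 2 hits each before. Reads of these arrays can match many loci, and the sources used here do not say how such reads were placed. The part of shared reads in the edge values was not tested.

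**Figure D3:**
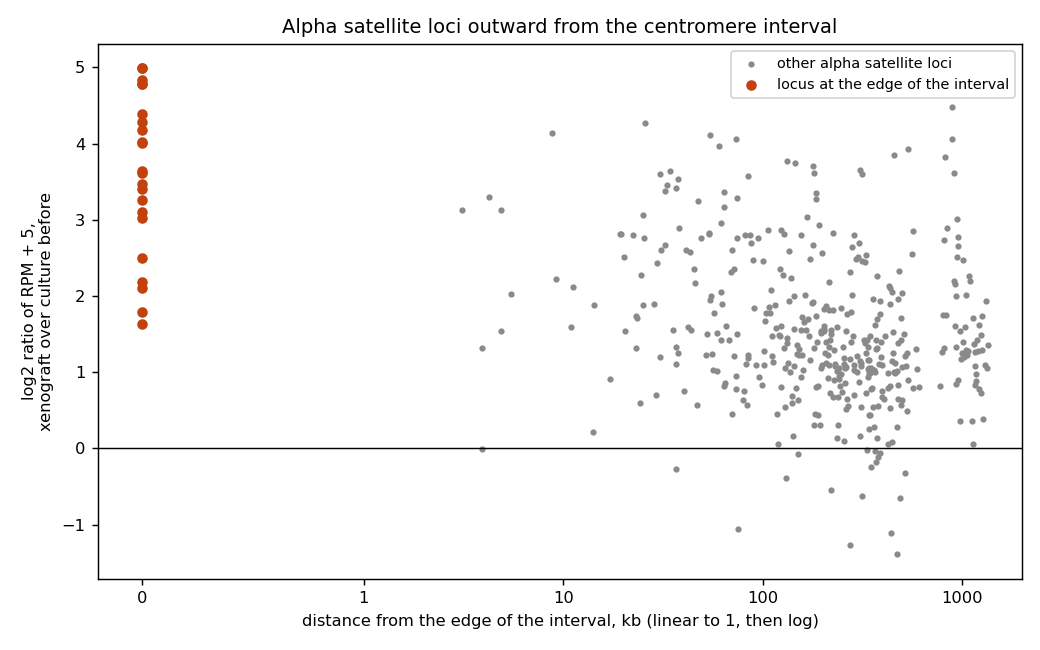
ALR/Alpha loci of the 13 chromosomes with a gap and of at least 20 hits over both libraries, with gap-edge loci set apart. The axes are the distance from the edge of the interval and the log2 ratio of RPM + 5, xenograft over culture before. Of the 26 gap-edge loci, 22 have enough hits to be drawn. By the ratio of RPM without the 5 RPM added, 20 of the 26 were above that of all satellites, 11.6, not all of them drawn. The other loci range in log2 ratio from -1.39 (chromosome 5, 468 kb away) to 4.48 (chromosome 7, 888 kb away).

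Chromosome 16 had steep contrasts between neighbouring alpha loci. At 35149247 to 35154405 (minus strand) the values were 70.5 RPM before, 22.9 RPM in the xenograft and 23.0 RPM after, a ratio of 0.325 (0.249 to 0.420). The adjoining locus, 35154422 to 35157585, had 39 hits before and 9 in the xenograft, a ratio of 0.311 (0.132 to 0.653). At 35158152 to 35165250 the ratio was already 2.70 (2.23 to 3.296), and at 35204197 to 35259004 it was 14.5 (13.02 to 16.3), with 80.1, 1164 and 1357 RPM. Loci of the same family within a stretch of about 0.1 Mb thus lay on both sides of 1.

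Locus length went with the ratio in some families and not in others. For ALR/Alpha the ratio was 1.63 (1.37 to 1.93) under 500 bp, between 6.29 and 7.95 in the 4 classes from 500 to under 10000 bp, and 18.0 (17.7 to 18.3) at 10000 bp or more. Without gap-edge loci the longest class still had 15.04. The lowest class rested on 1 locus, at chromosome 5, 160467064 to 160467247 (plus strand), which had 155 of its 243 hits before. That locus had 35.6, 4.64 and 2.27 RPM, and without it the class had a ratio of 4.26 (3.34 to 5.48). Loci of 5000 bp or more had 9.06 times the ratio of those under 500 bp with this locus and 3.46 times without it.

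Single ALR/Alpha loci were also compared by length at 20 RPM or more in either library, where 89.6% of all loci were higher. Of 146 loci of 10000 bp or more, 143 were higher, with a median log2 ratio of 2.86. Of 72 loci of 5000 to under 10000 bp, 54 were higher and 3 lower, with a median of 2.36. The contrast was wider among loci that had 20 RPM or more in the culture before. Of 25 such loci of 10000 bp or more, 24 were higher, with a median log2 ratio of 3.82. Of 20 such loci of 5000 to under 10000 bp, 6 were higher and 3 lower, with a median of 0.58. That minimum asks a shorter locus for more reads per kb before, which favours low ratios in the shorter class. The minimum in either library was mostly reached in the xenograft only. It asks a shorter locus for more reads per kb there, which favours high ratios in the shorter class. Nothing on length is therefore read from either contrast of single loci.

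BSR/Beta also had higher ratios in its longest classes. Its ratio was 1.74 under 500 bp, 1.77 from 500 to under 1000 bp, 2.76 from 1000 to under 2000 bp and 3.83 (3.58 to 4.10) from 2000 to under 5000 bp. A single locus, chromosome 19, 22073355 to 22075704, held 713 of the 1162 hits before in the last of these classes, and without it the class had 8.40 (7.60 to 9.30). The ratio was 15.8 (14.5 to 17.1) from 5000 to under 10000 bp and 16.3 (14.2 to 18.9) at 10000 bp or more. Only 20 loci had 5000 bp or more, 15 of them on the contigs Un_gl000225, Un_gl000216 and Un_gl000228, 3 on Y and 1 each on chromosomes 18 and 7. On Y the 3 long loci had a ratio of 18.9 (15.6 to 23.3), against 4.01 (3.71 to 4.33) for all 1282 beta loci of that chromosome. The long locus of chromosome 7 was low, with 4.11 (3.05 to 5.62), so a long locus did not always have a high ratio.

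Beta satellite on chromosome 19 had a ratio near that of the shortest beta loci. Its 383 loci held 383 RPM before, 684 RPM in the xenograft and 856 RPM after, a ratio of 1.79 (1.68 to 1.91). The locus at 22073355 to 22075704 had 164 RPM before, 155 RPM in the xenograft and 145 RPM after. The contigs Un_gl000225 with 15.97 (14.6 to 17.4) and Un_gl000216 with 19.1 (16.2 to 22.7), and chromosome 18 with a single locus at 18.5 (13.9 to 25.2), were far higher in ratio. Intervals of these 3 do not meet that of chromosome 19.

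HSATII varied less across length than ALR/Alpha or BSR/Beta. It had 23.1 (20.8 to 25.6) under 500 bp, 27.5 (24.8 to 30.7) from 500 to under 1000 bp, 22.8 (21.3 to 24.5) from 1000 to under 2000 bp and 28.4 (26.3 to 30.8) from 2000 to under 5000 bp. (GAATG)n had 37.3, 32.3 and 31.6 in its 3 classes under 2000 bp, and a single longer locus had 1 hit before and 62 in the xenograft. (CATTC)n had 24.8 (22.3 to 27.6) under 500 bp, 28.5 (24.5 to 33.3) from 500 to under 1000 bp, 37.1 (26.7 to 52.98) from 1000 to under 2000 bp and 21.96 (13.5 to 38.2) over 2 longer loci. GSATII had between 0.788 and 1.99, and its lowest class, under 500 bp, had 4.21 (1.84 to 10.8) without 1 locus. Over all families the ratio went from 13.4 (12.9 to 14.03) under 500 bp to 5.98 from 500 to under 1000 bp and 17.6 at 10000 bp or more. The classes hold different families, and the ratio of long to short loci over all families, 1.07, was 0.872 without gap-edge loci and 0.894 with the median of locus ratios.

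**Figure D4:**
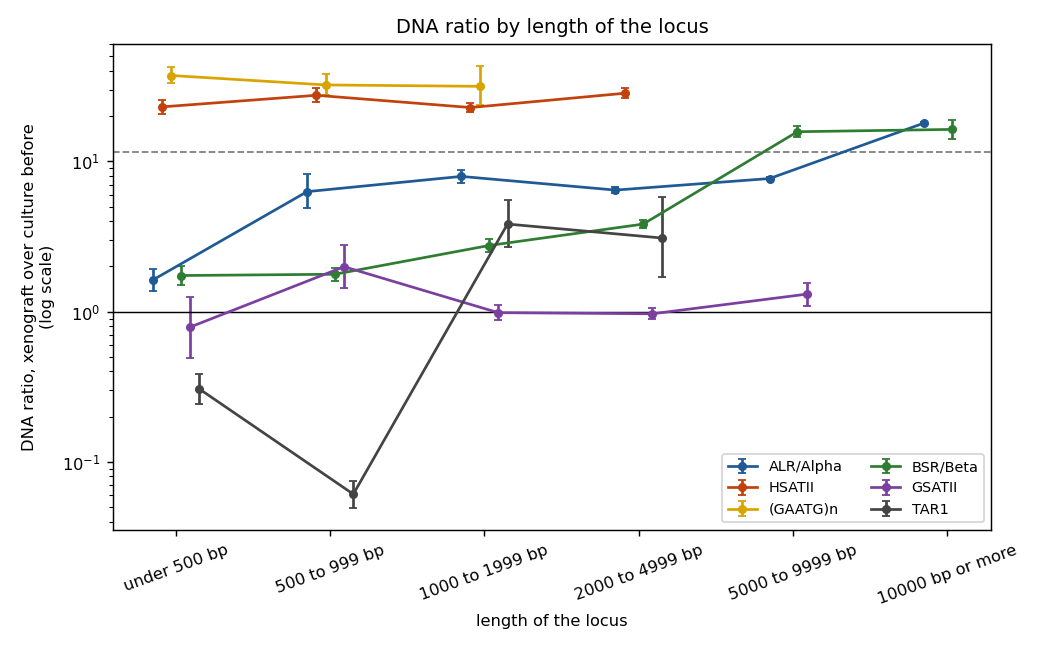
DNA ratio of xenograft to culture before by length of the locus for 6 families, log axis, with 95% counting intervals, in classes with 10 or more hits before; the dashed line is the ratio of all satellite hits, 11.6, and the solid line marks 1. ALR/Alpha and BSR/Beta are higher in their longest classes, HSATII and (GAATG)n lie between 22 and 38 in the classes drawn, GSATII lies near 1, and TAR1 is lowest from 500 to under 1000 bp.

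The locus with most xenograft hits in each length class came from 3 families. Under 500 bp it was HSATII at chromosome 10, 42389435 to 42389879, with 8.72, 134 and 126 RPM before, in the xenograft and after. From 500 to under 1000 bp it was HSATII at chromosome 10, 42393448 to 42394425, with 14.5, 205 and 189 RPM, and from 1000 to under 2000 bp HSATII at chromosome 10, 42384182 to 42385776, with 37.2, 560 and 539 RPM. These neighbours had ratios of 15.3, 14.2 and 15.1, so the HSATII block of chromosome 10 moved evenly. From 2000 to under 5000 bp it was the single SAR locus of chromosome 8, 43092746 to 43097520, with 226, 1786 and 2211 RPM. Its ratio was 7.89 (7.37 to 8.45), below 1 when scaled over satellite loci. From 5000 to under 10000 bp it was ALR/Alpha at chromosome 1, 121480151 to 121485429, with 172, 2445 and 2697 RPM, and in the longest class ALR/Alpha on the contig Un_gl000226, 2 to 15004, with 329, 6527 and 7250 RPM.

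HSATII, unlike ALR/Alpha, had its highest ratio on one chromosome clearly apart from the others. On the 6 chromosomes with 20 or more hits before, the ratio was 51.3 (47.1 to 56.0) on 16, 29.2 (19.7 to 45.1) on 22, 25.6 (21.04 to 31.4) on 7, 24.04 (20.97 to 27.7) on 2, 15.1 (14.3 to 16.03) on 10 and 14.1 (9.61 to 21.4) on 3. The interval of 16 lies above the rest, those of 22, 7 and 2 overlap, and those of 10 and 3 overlap. The chromosome 3 value is 1 locus of 151 bp, 196625625 to 196625775, with 6.66, 93.8 and 91.5 RPM. The culture after differed from the xenograft by 0.959 to 1.04 on these chromosomes. With the median of locus ratios in place of sums, the highest chromosome was 1.97 times the lowest, against 3.64 times with sums.

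The high value of chromosome 16 came from a single block. Its largest cluster, 85 HSATII loci from 46385804 to 46456584, went from 103 RPM before to 5796 RPM in the xenograft and 5806 RPM after, a ratio of 56.4 (51.3 to 62.0). The other 71 HSATII loci of the chromosome had 24.8 (19.9 to 31.2), the level of chromosomes 2 and 7. Within the block, loci on the plus strand had 60.7 (53.9 to 68.6) and loci on the minus strand 49.3 (42.3 to 57.7), with overlapping intervals. Of the 10 highest loci on the log2(RPM + 5) scale, 8 lay here, with log2 ratios of 4.88 to 5.32. The highest, 46406453 to 46408125 (plus strand), had 2.53, 295 and 302 RPM, and the next, 46400292 to 46403436 (plus strand), had 7.35, 473 and 464 RPM. The other 2 of the 10 were gap-edge ALR/Alpha loci, the left edge of chromosome 17 and the right edge of X. The 5 RPM added holds down loci with few reads. Without it some other loci had higher ratios than these 2, among them X, 61862765 to 61874573, with 73.1 (28.2 to 271) on 4 hits before.

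ACRO1, a satellite named for the acrocentric chromosomes, had similar ratios on the 3 sequences with 10 or more hits before, of 9 that hold it. It had 76.5 (52.4 to 117) on chromosome 4, 76.4 (44.4 to 144) on Un_gl000214 and 79.3 (46.1 to 150) on Un_gl000224. On chromosome 4 the levels were 6.199, 474 and 268 RPM, so here the culture after stood between the others. SST1 was uneven, from 1.68 (1.33 to 2.11) on Y to 12.3 (7.08 to 23.2) on chromosome 20. CER ranged from 5.70 (4.37 to 7.53) on chromosome 22 to 13.1 (6.81 to 28.1) on chromosome 4. GSATII, on 15 sequences with 10 or more hits before, ranged around 1, from 0.436 (0.199 to 0.881) on Un_gl000211 to 2.43 (1.89 to 3.13) on chromosome 12.

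The lowest loci were a small and distinct set. It was headed by 4 TAR1 loci of chromosome 9. They lie at 42805767 to 42806343 (minus strand), 67340081 to 67340661 (plus), 69724087 to 69724616 (plus) and 66957765 to 66958254 (minus). Each is under 100 kb from an ALR/Alpha locus of 5000 bp or more, so by position these copies are not subtelomeric. The first had 198 RPM before, 2.79 RPM in the xenograft and 2.92 RPM after (862, 9 and 9 hits), and was 71.1-fold lower (37.3 to 156) in the xenograft. The others had 153, 135 and 80.1 RPM before against 2.79, 2.48 and 2.17 RPM in the xenograft, and were 55.1-fold, 54.3-fold and 37.0-fold lower. All 4 were high only in the culture before, and they stayed lower under both scalings.

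Neighbours of these TAR1 loci did not share the change. The 13 other satellite loci of the same clusters, REP522 and SUBTEL_sa repeats, had 2 hits before and 30 in the xenograft. The 4 clusters resemble each other, and each holds a REP522 locus of 185 bp with 0 hits before and 2 in the xenograft. The 4 TAR1 loci may therefore share reads and not be separate cases, which was not tested. The 20 other TAR1 loci of chromosome 9 had 13 and 43 hits, a ratio of 4.46 (2.35 to 9.04), and all 157 other TAR1 loci had 1.33 (1.14 to 1.55). Together the 4 loci had 2465 hits before and 33 in the xenograft, and chromosome 9 over all families had a ratio of 2.03 with them and 5.79 (5.46 to 6.16) without them. Chromosome 9 also held the lowest beta satellite value, at 110269933 to 110270069, with 40 hits before and 1 in the xenograft.

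The 5 other lower loci were the short ALR/Alpha locus of chromosome 5, the ALR/Alpha locus of chromosome 16, SST1 at chromosome 19, 36799317 to 36800883 (plus strand), and ALR/Alpha at chromosomes 11 and 8. SST1 had 34.4, 7.12 and 4.87 RPM, a ratio of 0.207 (0.127 to 0.322), while all SST1 of chromosome 19 had 2.62 (2.33 to 2.96). ALR/Alpha at chromosome 11, 51149337 to 51154429 (minus strand), had 40.4, 16.1 and 17.2 RPM. At chromosome 8, 46913870 to 46922182 (plus strand), it had 31.9, 12.7 and 17.9 RPM. The latter lies within 0.1 Mb of the chromosome 8 right edge, whose ratio was 16.5. The tenth lowest, GSATII at 17_gl000205_random, 109878 to 112289, had 40.6, 21.4 and 34.4 RPM and fell short of 2-fold. All 9 lower loci were high only in the culture before, since their culture-after values were at or near the xenograft's.

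Neighbouring loci were joined into clusters while the gap to the next satellite was 10 kb or less. This gave 1099 clusters, 396 of them a single locus, and the largest held 370 loci. Of the 140 clusters with at least 3 loci, 100 hits over both libraries and 10 hits before, the median ratio was 11.7, and 15 had a ratio below 1. Medians by the family that led the cluster were 31.9 for (GAATG)n, 27.2 for (CATTC)n, 24.98 for HSATII, 13.6 for ALR/Alpha, 8.28 for ACRO1, 3.10 for BSR/Beta and 0.899 for GSATII. Among the 64 ALR/Alpha clusters the ratio ranged from 0.984 to 34.8, among the 21 led by BSR/Beta from 0.887 to 20.4, and among the 7 led by ACRO1 from 3.301 to 79.3.

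The clusters with most xenograft hits were mainly alpha satellite. They were the 33 loci right of the X gap at 22.2 (20.999 to 23.4), the lone Un_gl000226 locus at 19.9 (18.8 to 20.96), the 112 loci left of the X gap at 20.9 (19.8 to 22.1), the chromosome 16 HSATII block, and 121 loci on chromosome 10, 42354938 to 42546685, at 15.1 (14.4 to 15.9). The chromosome 10 cluster mixes (CATTC)n, ALR/Alpha and HSATII. The highest cluster ratios were 79.3 in the ACRO1 cluster of Un_gl000224, 56.4 in the chromosome 16 block, 42.4 and 42.1 in clusters of Y at 13642279 to 13748576 and 13798589 to 13870229, and 40.9 on chromosome 10 at 39076609 to 39154933. The lowest were the 4 TAR1 clusters, at 0.0266 to 0.0539, and a GSATII cluster of Un_gl000244 at 0.648 (0.451 to 0.919).

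**Figure D5:**
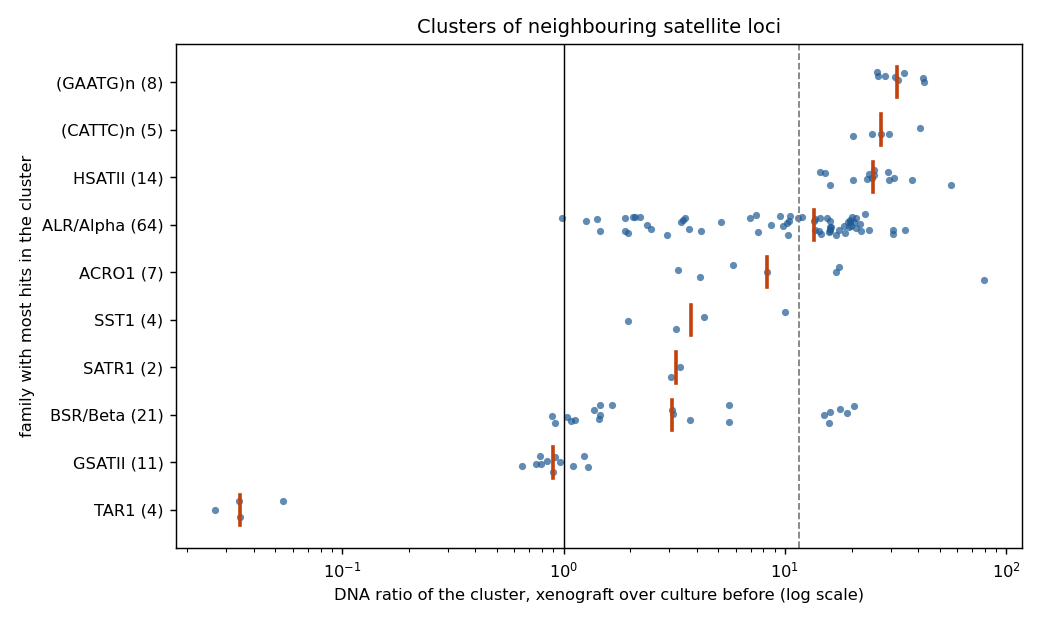
Each point is 1 of the 140 clusters of neighbouring satellite loci, placed by the family with most hits and by the DNA ratio of xenograft to culture before (log scale). Clusters led by TAR1 lie under 0.1 and those led by GSATII near 1, while ALR/Alpha clusters range from 0.984 to 34.8.

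Lone loci had a ratio of 14.3 (13.8 to 14.8) and clustered loci 11.3 (11.2 to 11.4), so clustered loci had 0.790 times the ratio of lone loci. Over all families this rested on Un_gl000226. Without it the lone loci had 10.4 (9.95 to 10.9), and the relation turned to 1.08.

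Neighbours of the same family resembled each other on the log2(RPM + 5) scale. Over 690 consecutive pairs in a cluster with 5 RPM or more in either library at both loci, Pearson's r between their log2 ratios was 0.55, with a median difference of 0.50. It was 0.44 for ALR/Alpha (n = 342), 0.55 for HSATII (n = 145) and 0.05 for (GAATG)n (n = 62), where ratios vary little. Within chromosome 16 HSATII it was 0.59 (n = 64), and within chromosome 10 HSATII 0.59 (n = 31), so it did not rest on differences between chromosomes there. Pairs share libraries and can share reads, and raising the minimum to 20 RPM lowered r to 0.32. At loci with few reads the scale follows the RPM of the locus as well as its ratio. Neighbours of like RPM can thus raise r, and how much was not tested. With 1 RPM added in place of 5, r was 0.60.

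Over 16 pairs of neighbours of different families r was -0.32. Of these pairs, 7 join an ACRO1 locus and a GSATII locus 812 to 853 bp apart. In all 7 pairs ACRO1 was the higher, with log2 ratios of 2.97 to 3.36 against -0.27 to 1.18 for GSATII. Among those on chromosome 4 are pairs with identical values, which may rest on the same reads. The negative r comes from them, since over the other 9 pairs r was 0.48.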

How the data were processed

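The authors counted reads at each satellite locus and divided them by a library total to make the deposited RPM values, as the values themselves show, since the file headers name no unit. Whole reads were recovered: 100% of the deposited nonzero values were whole multiples of the value of 1 read, within 0.01 reads. Per the submitters' processing notes the build is hg19. Not given in the sources used here are the aligner, the placement of reads with several matches, the treatment of mouse reads and what the total counts. Leaving out loci with no or very few hits summed over the libraries, 1300 loci have values identical to another locus of their family. Reads may be counted at each.

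Chromosome, start, end, strand and length were read from the locus names. Groups of loci were summed, and each ratio has a 95% Clopper-Pearson interval, conditional on the total of recovered reads, which were treated as independent. A pseudocount of 5 RPM and a minimum of 20 RPM in either library were used for single loci. The loci named are the 10 highest and 10 lowest ratios, each lower locus, the extreme chromosomes and clusters, and the strongest locus of each length class; other loci were named as examples after their values were seen. The comparison, lists and rules were chosen with earlier results of these data known. Recovery of set differences was tested on simulated data. Alternatives were TMM scaling (edgeR 4.0.16), size factors (DESeq2 1.42.0), other minimums, pseudocounts, gaps and length limits, identical loci counted once, and a count test on recovered reads, which called 415 loci higher and 15 lower at a Benjamini-Hochberg adjusted p of 0.05. That test compares 2 libraries, not the conditions. The gap-edge rule and the removal of single loci were added after the data were seen. Software was matplotlib 3.10.9, SciPy 1.17.1, pandas 2.3.3, NumPy 2.4.6, Python 3.11.15 and R 4.3.3. No sequence is printed, and gene annotation was not used, because no hg19 reference was used here.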

Additional observations from a re-analysis of the deposited data

How the results depend on the processing

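No paired analysis was possible because each group is 1 library and the labels carry no replicate numbers. The comparison has no replicates, counting error is the only error given, and locus-level statements are limited by the 0.230 RPM value of a read in the culture before. Over 52 alternatives to 9 results, 21 left the value within its bounds, 28 moved it and 3 turned it; the cause was not tested, except where the alternative itself removes loci.

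The 398 higher loci became 731 with a minimum of 10 RPM, 208 with 50 RPM, 1279 with none, 38 with 20 RPM required in the culture before, 189 with TMM scaling and 163 with size factors. The 9 lower loci became 16 with 10 RPM, 5 with 50 RPM, 19 with no minimum, 58 with TMM scaling, 60 with size factors and 15 in the count test. The spread of ALR/Alpha over chromosomes, 4.78, became 7.63 with medians of loci, 12.2 without the strongest locus of each chromosome, 3.52 with 5 times the hit minimum and 11.4 without gap-edge loci. The HSATII spread, 3.64, became 1.97 with medians.

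The ALR/Alpha ratio of long over short loci, 9.06, became 6.68 with limits of 10000 and 1000 bp, 3.46 without the short locus of chromosome 5 and 7.30 without gap-edge loci. Over all families 1.07 became 2.04 with those limits and 1.13 with identical loci counted once, and turned to 0.894 with medians and 0.872 without gap-edge loci. Clustered over lone loci, 0.790, became 0.572 with a gap of 1 kb, 0.711 with 100 kb and 0.624 for ALR/Alpha only, and turned to 1.08 without Un_gl000226. The likeness of neighbours, 0.55, became 0.32 with a minimum of 20 RPM. For different families -0.32 became -0.53 with a gap of 1 kb and -0.50 with a pseudocount of 1 RPM, and a minimum of 20 RPM left under 3 pairs and no value.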
